A study of Mus musculus with 69 samples.

Results

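The B lymphocyte identity genes were 9 genes chosen by name because B cells are known by them: Ms4a1, Cd79a, Cd79b, Cd22, Pax5, Blk, Fcer2a, Cr2 and Cxcr5. They were found through 11 of the 41174 probes of the array, those whose accession maps to 1 of these RefSeq symbols. All 9 were among the 18749 genes with a probe and the 18656 tested. The samples were lungs of female C57BL/6 mice, 5 to 7 weeks old on arrival and given 1 to 3 weeks to settle, which received vehicle (water with 2% serum) or 18, 54 or 162 µg of 1 of the nano-TiO2 materials NRCWE-025 and NRCWE-030 in a single instillation into the trachea. Each of 69 arrays held RNA of 1 mouse from a piece of frozen lung collected on day 1 or day 28 (Cy5 dye) beside Universal Mouse Reference RNA (Cy3 dye), with no dye swap. The 14 groups held 5 mice each, apart from NRCWE-025 162 µg on day 28 with 4, and both materials were compared with the same 5 vehicle mice of their day. The labels number the mice but do not say how they were caged or dosed in batches.

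B lymphocytes are the cells that make antibodies. Their antigen receptor is a membrane immunoglobulin bound to the signalling chains Cd79a and Cd79b, and coreceptors such as Cr2 and Cd22 raise or dampen its signal. A healthy lung holds scattered B cells in its tissue and vessels, and under lasting irritation they can gather in follicles, to which the chemokine receptor Cxcr5 guides them. The array measures RNA of a mixed tissue, so fewer B cells and less RNA per B cell cannot be told apart.

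A level below is the log2 of lung over reference RNA, so a value of 1 is 2-fold more signal from the lung than from the reference pool. Levels of different genes are not set against each other, since each probe and the content of the reference pool differ. Spots counted as well above background (a flag of the scanner software) made up 49.1% to 72.8% of each array, and the number of arrays limits the precision. For Ms4a1 (probe A_52_P483336), Cd79b (A_51_P342652), Fcer2a (A_51_P210591) and Cxcr5 (A_52_P70796) the Cy5 signal was well above background on all 69 arrays. Cd79a (A_52_P651316) reached that mark on 60 arrays, Blk (A_52_P15405) on 28 and Pax5 (A_51_P122855) on 9. The level of Pax5, the transcription factor that holds cells in the B lineage, was therefore mostly a bound set by the background, and in 5 of 14 groups no array measured it above background.

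Cd22 and Cr2 had 2 probes each, which behaved differently. The Cd22 probe A_51_P448140 was well above background on 69 arrays and A_52_P466268 on 7, while the Cr2 probes A_51_P208525 and A_52_P490788 reached it on 56 and 31. The gene value was the median over both probes, which draws the change of Cd22 toward that of its dim probe. Among vehicle controls on day 1, the bright Cd22 probe had a log2 level of 2.27 ± 0.31 (SD, n = 5) and the dim probe 0.15 ± 0.17 (SD, n = 5).

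Upstream sequence was at hand in RefSeq (GRCm38.p6) for 5 of the 9 genes, and that of Cd79a and Cd22 is printed. Cd79a is a chain of the receptor and Cd22 a coreceptor, and each held 1 of the 3 short motifs searched. They are printed for that reason, and the sequences of the other genes, Cr2, Fcer2a and Pax5, held none of the motifs. The positions are those of the gene model and not of the probes. The 250 bases before the start of Cd79a lie on the plus strand at chr7:24897247-24897496 and those of Cd22 on the minus strand at chr7:30879029-30879278, both before the annotated start of the gene. Capitals mark GAGGAA or its reverse TTCCTC (a core of sites for ETS factors) in Cd79a, and CCCNNGGG (the core of sites for EBF factors, the same on both strands) in Cd22.
Cd79a: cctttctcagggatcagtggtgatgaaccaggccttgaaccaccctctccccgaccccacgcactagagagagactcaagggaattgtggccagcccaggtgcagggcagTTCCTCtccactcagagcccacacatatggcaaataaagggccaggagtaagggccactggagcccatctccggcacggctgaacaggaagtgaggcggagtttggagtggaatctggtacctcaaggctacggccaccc
Cd22: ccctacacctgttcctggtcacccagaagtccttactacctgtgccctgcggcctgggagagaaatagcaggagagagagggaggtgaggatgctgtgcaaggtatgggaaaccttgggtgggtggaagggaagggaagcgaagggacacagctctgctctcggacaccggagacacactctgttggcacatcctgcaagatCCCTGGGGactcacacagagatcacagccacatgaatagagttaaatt
The match in Cd79a began 140 bases before the start and that in Cd22 48 bases before it. The ETS core was in 23.3% and the EBF core in 11.8% of the 32851 promoter windows of the same length. The third motif, the octamer ATGCAAAT on either strand, was in 1.60% of all windows and in none of the 7 windows of these 5 genes. The motifs do not overlap, and a match is a description of letters, not a binding site.

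The largest differences from control among the 9 genes were those of Ms4a1 and Cd79b on day 1 after NRCWE-030. Ms4a1, Cd79b and Cd22 had lower levels than in vehicle controls at 54 and 162 µg, by 0.39 to 0.93 on the log2 scale, while Fcer2a had a higher level at 162 µg. None of the 9 genes passed limma's moderated test at an adjusted p under 0.05, in these or in any other of 21 comparisons, and the nearest was Cd22 at 162 µg (adjusted p = 0.0501). The plot of levels by group shows that mice of 1 group often differed as much as groups did.

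**Figure D1:**
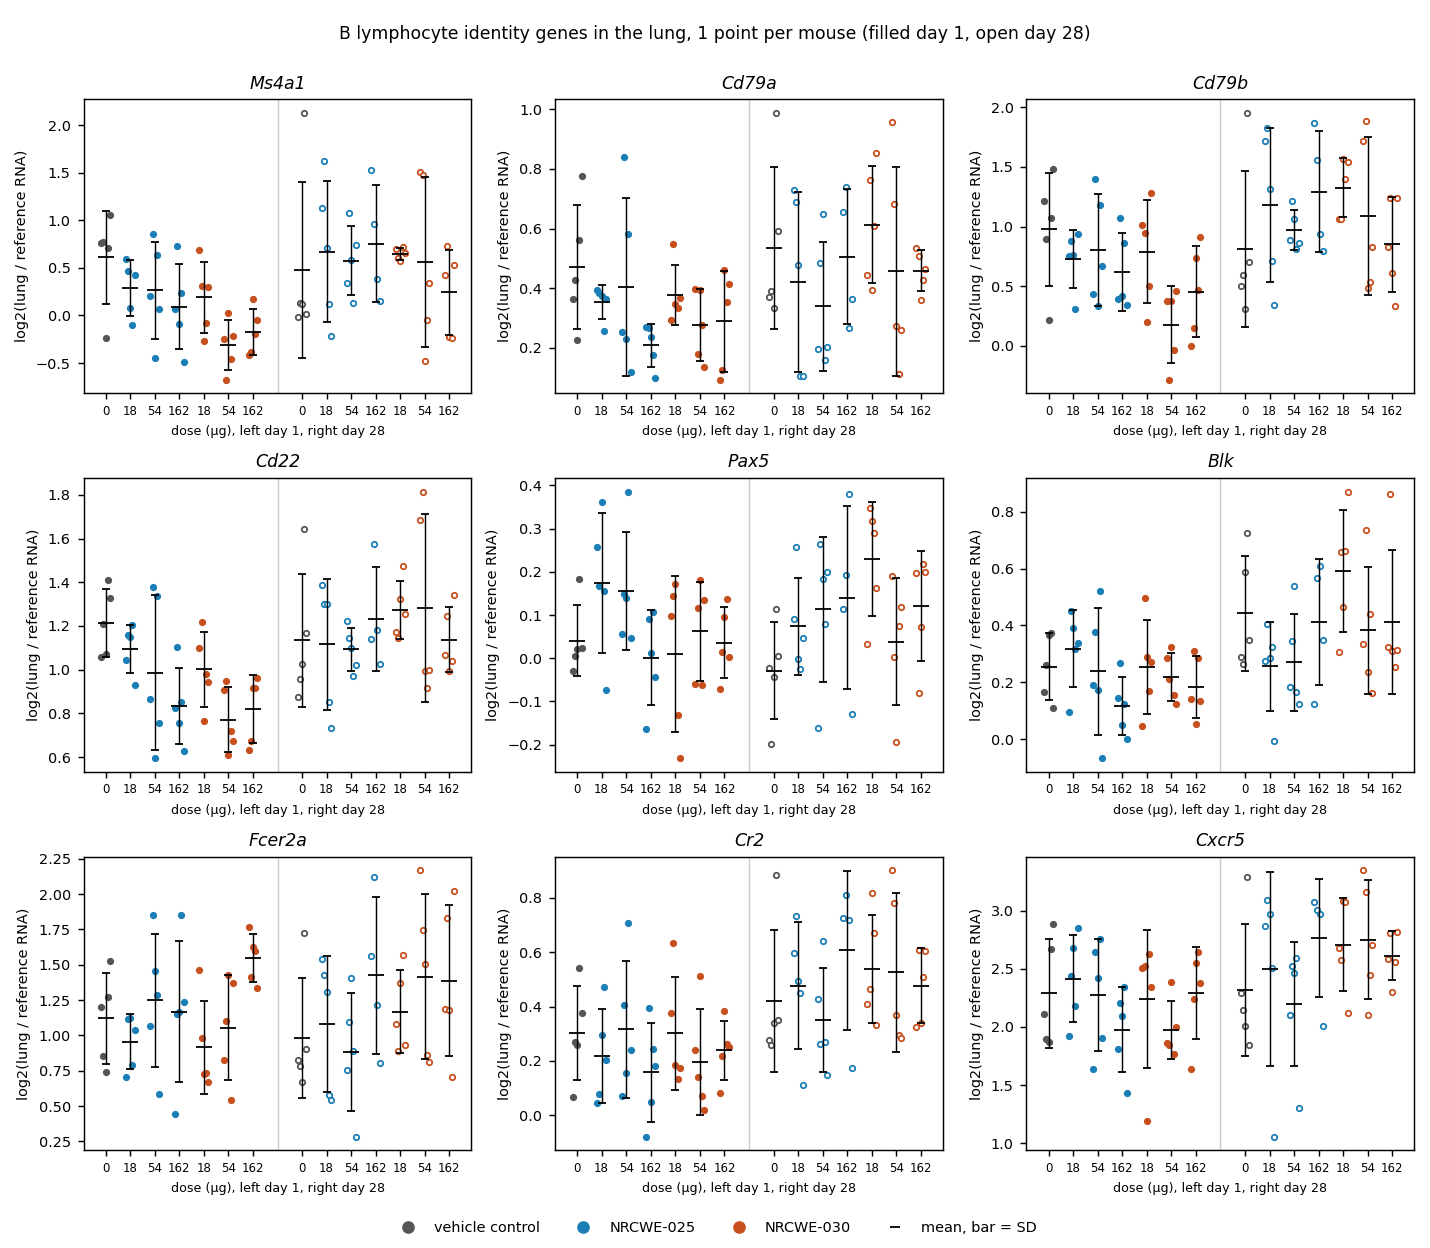
Log2 level (lung over reference RNA) of the 9 genes, 1 point per mouse, with vehicle controls (0 µg), NRCWE-025 and NRCWE-030 on day 1 (left, filled) and day 28 (right, open). Horizontal marks are group means and bars are SD (n = 5, or 4 for NRCWE-025 162 µg on day 28). Ms4a1 lay between -0.67 and 0.02 at NRCWE-030 54 µg on day 1, and 4 of 5 controls of that day lay at 0.71 or above.

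Ms4a1 encodes CD20, a membrane protein of mature B cells and the target of B cell depleting antibodies. In the controls of day 1 its log2 levels were 0.76, 0.77, -0.24, 0.71 and 1.05. After NRCWE-030 they were 0.68, 0.31, -0.27, -0.08 and 0.30 at 18 µg, -0.25, -0.67, 0.02, -0.45 and -0.22 at 54 µg, and -0.42, -0.38, 0.17, -0.19 and -0.05 at 162 µg. All mice at 54 and 162 µg were thus below 4 of the 5 controls, and the remaining control, replicate 3, lay among them. The difference from control was -0.42 ± 0.21 (SE) at 18 µg, -0.93 ± 0.21 at 54 µg (adjusted p = 0.0874) and -0.78 ± 0.21 at 162 µg (adjusted p = 0.0634), and the F-test over dose gave an adjusted p of 0.0791. Without control replicate 3 of day 1, the difference was -1.14 at 54 µg (adjusted p = 0.00545) and -0.996 at 162 µg (adjusted p = 0.00702), and both were called. This control was singled out by its low Ms4a1 level, so leaving it out enlarges the difference and narrows the spread of the controls. Over all genes, 66 were called at 54 µg and 256 at 162 µg without it, where the main fit had 15 and 316.

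Cd22 encodes a lectin that binds sialic acids and restrains the B cell receptor. Its log2 levels in the controls of day 1 were 1.06, 1.21, 1.07, 1.41 and 1.33. After NRCWE-030 they were 1.10, 1.22, 0.76, 0.98 and 0.95 at 18 µg, 0.91, 0.95, 0.61, 0.72 and 0.67 at 54 µg, and 0.63, 0.67, 0.92, 0.92 and 0.96 at 162 µg. Every mouse at 54 and 162 µg was below every control, which held for 0.933% and 1.65% of all genes tested, and at 18 µg the groups overlapped. The difference was -0.21 ± 0.10 (SE) at 18 µg (adjusted p = 0.677), -0.44 ± 0.10 at 54 µg (adjusted p = 0.0874) and -0.39 ± 0.10 at 162 µg (adjusted p = 0.0501), and the F-test gave an adjusted p of 0.0740. On the bright probe alone the group means were 2.27 ± 0.31 (SD, n = 5) in controls, 1.44 ± 0.23 at 54 µg and 1.68 ± 0.33 at 162 µg, differences of -0.83 (adjusted p = 0.119 over all probes) and -0.59 (adjusted p = 0.141).

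The partners of the B cell receptor, Cd79b and Cd79a, both had lower group means than controls at 54 and 162 µg of NRCWE-030. Cd79b had log2 levels of 1.21, 0.90, 0.22, 1.07 and 1.48 in controls, 0.38, -0.28, 0.37, -0.04 and 0.46 at NRCWE-030 54 µg, and 0.00, 0.15, 0.74, 0.47 and 0.91 at 162 µg. The control at 0.22 was again replicate 3, and at 54 µg every mouse was below the other 4 controls. The difference was -0.80 ± 0.24 (SE) at 54 µg (adjusted p = 0.224) and -0.52 ± 0.24 at 162 µg (adjusted p = 0.353). Cd79a, the other chain, differed by -0.09 ± 0.10, -0.19 ± 0.10 and -0.18 ± 0.10 at 18, 54 and 162 µg (adjusted p = 0.488 or higher), with overlap at all doses. Its probe was well above background on 3 of 5 arrays at 54 µg and 4 of 5 at 162 µg. The median Cy5 signal was 1.57 times the local background for Cd79a and 58.6 times for Cd79b. The sizes of their differences are therefore not set against each other.

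Fcer2a encodes CD23, the low-affinity receptor for IgE on mature B cells, and went the other way at the highest dose. Its log2 levels were 1.20, 0.86, 0.74, 1.27 and 1.53 in controls and 1.76, 1.41, 1.63, 1.60 and 1.34 at NRCWE-030 162 µg. Of these 5 mice, 3 were above every control. The difference was 0.43 ± 0.18 (SE) at 162 µg (adjusted p = 0.307), against -0.20 ± 0.18 at 18 µg and -0.07 ± 0.18 at 54 µg. Over the other processings and fits tried on all arrays, the difference of Fcer2a at 162 µg ran from 0.14 to 0.54. Within the 2 scan days that held controls and this dose it was 0.08 and 0.49. Cr2, the complement receptor CD21, differed by -0.11 ± 0.11 at 54 µg and -0.06 ± 0.11 at 162 µg, and Cxcr5, the receptor for Cxcl13, by -0.32 ± 0.26 and 0.00 ± 0.26. Blk, a Src family kinase of the receptor pathway, differed by -0.04 ± 0.08 and -0.07 ± 0.08, and Pax5 by 0.02 ± 0.08 and 0.00 ± 0.08, where the low signal limits what could be seen.

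Counted together, 0, 1 and 2 of the 9 genes were higher than control at 18, 54 and 162 µg of NRCWE-030 on day 1, with median log2 differences of -0.09, -0.19 and -0.07, against medians of 0.00, -0.01 and 0.00 over all genes. Without control replicate 3 of day 1 the medians were -0.15, -0.26 and -0.10, and 1 gene was higher at each dose. Leaving out a control with low member levels lowers these medians. At adjusted p under 0.05, 0.00536%, 0.0804% and 1.69% of all genes were called at the 3 doses and 0.954% by the F-test over dose, and 0 members in each. At unadjusted p under 0.05, 1 member was below at 18 µg, 3 at 54 µg, 4 at 162 µg (3 lower, 1 higher) and 4 by the F-test, where 7.3%, 8.76%, 12.9% and 11.2% of all genes were below. At 54 µg, 3 scan days held both groups. Within these the difference from control ran from -1.38 to -1.02 for Ms4a1 and from -0.65 to -0.30 for Cd22. At 162 µg it ran, in 2 scan days, from -1.13 to -1.06 and from -0.77 to -0.41. Each scan day set 1 control against 1 treated mouse, or against 2 in 1 scan day at 162 µg. None of them held control replicate 3, the control that lay among the treated mice for Ms4a1. With the slide as a random block, both genes were called at 54 µg (adjusted p = 0.0323 for Ms4a1, 0.0382 for Cd22) and at 162 µg (0.0414 and 0.0341). This block raised the calls over all genes too, to 118 at 54 µg and 494 at 162 µg, where the main fit had 15 and 316. With the slide as a fixed block neither was, with adjusted p of 0.0519 and 0.120 at 54 µg and 0.112 and 0.181 at 162 µg. Nor was either with the scan day as a fixed block, with adjusted p of 0.0523 and 0.150 at 54 µg and 0.0979 and 0.234 at 162 µg. The share of spots well above background had medians of 62.1% in controls, 57.9% at 54 µg and 60.0% at 162 µg, and its part in the differences was not tested.

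**Figure D2:**
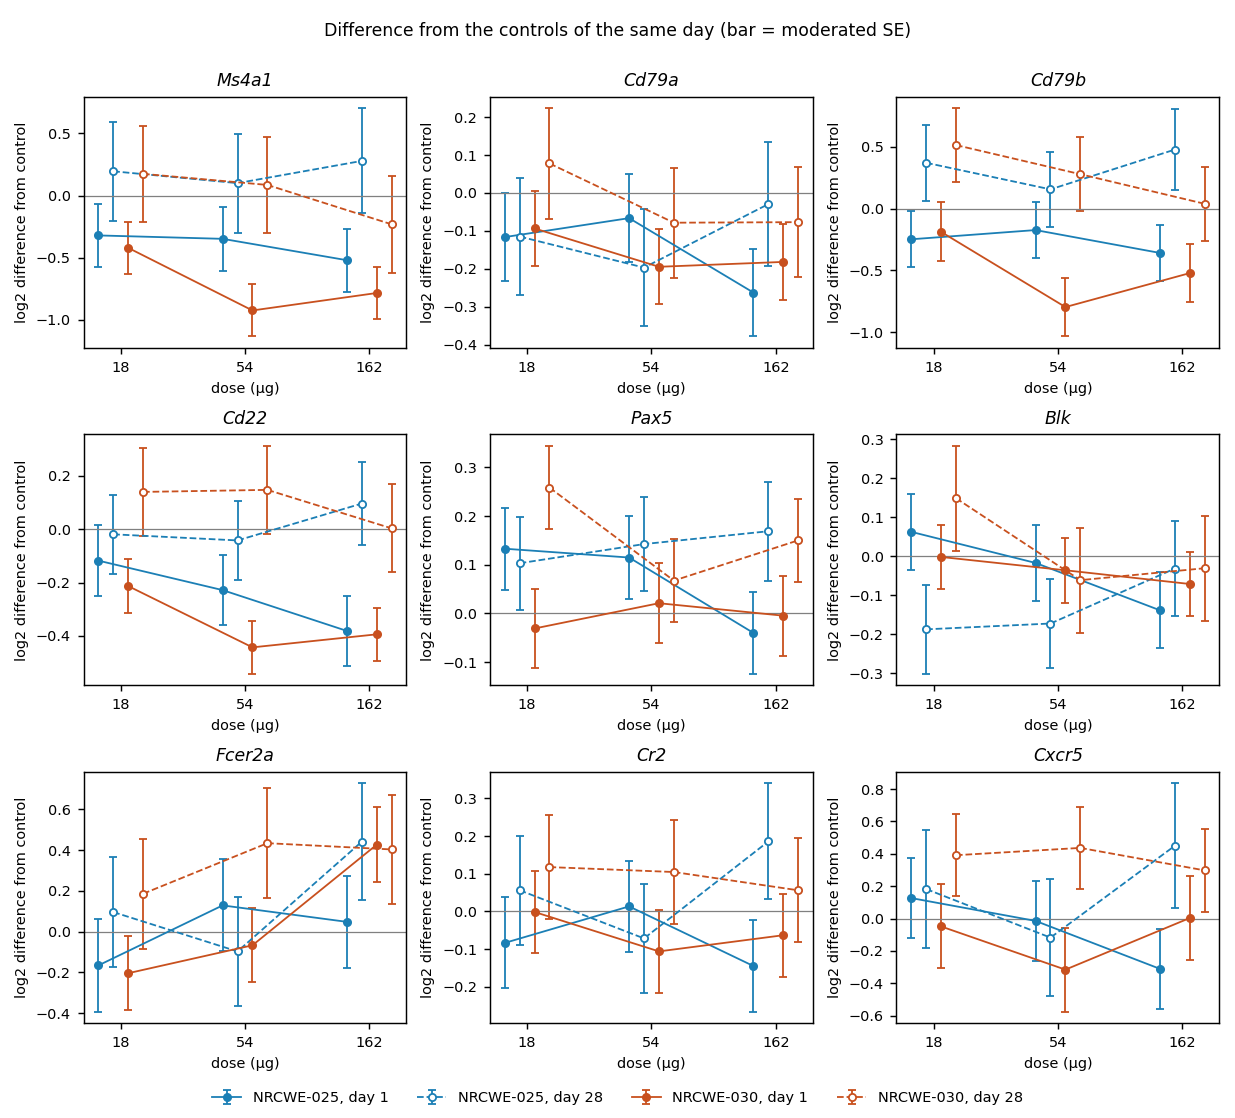
Log2 difference from the vehicle controls of the same day for each gene, by dose (µg), for NRCWE-025 and NRCWE-030 on day 1 (filled, solid lines) and day 28 (open, dashed lines). Points are limma contrasts and bars are moderated SE. On day 1 Ms4a1 differed by -0.93 and Cd79b by -0.80 at NRCWE-030 54 µg, and on day 28 by 0.09 and 0.28 at the same dose.

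A wider list of 40 B cell receptor and lineage genes without the members, of which 37 were measured, was counted in the same comparisons. At NRCWE-030 54 µg, 34 of the 37 were lower than control, with a median log2 difference of -0.25 against -0.01 over all genes, and 1 was called lower. This was H2-Oa, a chain of the nonclassical MHC molecule that B cells use to tune antigen loading, at 2.48 ± 0.30 (SD, n = 5) in controls and 1.58 ± 0.19 at 54 µg (difference -0.91, adjusted p = 0.0280). At 162 µg, 25 of the 37 were lower (median -0.11), and the only gene called was Fcgr2b, the inhibitory Fc receptor of B cells and myeloid cells, which was higher by 0.84 (adjusted p = 0.00844). The F-test over dose also called Fcmr, the receptor for IgM (adjusted p = 0.0401), at 3.91 ± 0.31 (SD, n = 5) in controls, 3.11 ± 0.39 at 54 µg and 3.27 ± 0.16 at 162 µg.

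Other lists were counted beside these. Of 13 chemokines, survival factors and ligands of B cells, 1 was called at NRCWE-030 162 µg on day 1: Ccl19, which draws lymphocytes and dendritic cells through the receptor Ccr7, was higher by 0.93 (adjusted p = 0.0306), and every treated mouse was above every control, as for 541 of the 18656 genes tested. Cxcl13, the ligand of Cxcr5, had 0.96 ± 1.01 (SD, n = 5) in controls and 1.66 ± 0.88 at 162 µg (adjusted p = 0.530), a difference smaller than the SD of either group. Of 11 neutrophil markers 8 were higher (median 0.07) and 1 was called, Csf3r, the receptor for the growth factor of neutrophils, higher by 1.25 (adjusted p = 0.00262). Of 17 T cell markers 8 were higher (median 0.00) and of 8 NK cell markers 4 (median 0.00), with none called in either list. All 6 adipocyte markers were lower (median -0.62), as were 8 of 9 epithelial markers (median -0.43), with none called. Of 8 endothelial and fibroblast markers 5 were higher, and Pdgfra, a receptor of fibroblasts, was called lower (-0.55, adjusted p = 0.0463). At 54 µg, where Ms4a1 and Cd79b differed most, all 8 NK cell markers were lower (median -0.22), as were 12 of 17 T cell markers (median -0.12) and all 6 adipocyte markers (median -0.96), with none called. The part of a changed mix of cells in the levels of the B cell genes was not tested.

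After NRCWE-025 on day 1 most members were also below control, with none called. At 162 µg 8 of the 9 genes were lower than control, with a median of -0.26, at 54 µg 6 (median -0.02) and at 18 µg 6 (median -0.12). Without control replicate 3 of day 1, 9, 5 and 6 were lower at 162, 54 and 18 µg, with medians of -0.32, -0.12 and -0.15, and none was called. Here too, leaving out a control with low member levels lowers the medians. Cd22 had 0.83, 1.10, 0.75, 0.85 and 0.63 at 162 µg, with 4 of 5 mice below every control, and differed by -0.38 ± 0.13 (SE, adjusted p = 0.221). Over the other processings and fits tried on all arrays, its difference ran from -0.88 to -0.07 (adjusted p from 0.122 to 0.906), so its size did not hold. Cd79a differed by -0.26 ± 0.12 (adjusted p = 0.356) and Ms4a1 by -0.52 ± 0.26. The calls over all genes were 0%, 0% and 0.209% at 18, 54 and 162 µg and 0.0214% for the F-test, with 0 members called. At unadjusted p under 0.05 there were 0, 0, 2 and 0 members, against 5.12%, 6.53%, 12.3% and 9.98% of all genes. With the slide as a fixed block, the difference of Cd79a at 162 µg was 0.02, so its direction did not hold. Spots well above background had median shares of 61.7%, 60.2% and 55.3% at 18, 54 and 162 µg, against 62.1% in controls. The part of this share in the differences was not tested.

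The materials were compared at each dose in 1 fit of all 14 groups. On day 1 NRCWE-030 minus NRCWE-025 at 54 µg was -0.62 for Cd79b (95% interval -1.18 to -0.07, adjusted p = 0.778) and -0.58 for Ms4a1 (95% interval -1.23 to 0.08, adjusted p = 0.909). At 162 µg Cd22 differed by -0.01 (95% interval -0.30 to 0.27) and Fcer2a by 0.38 (-0.14 to 0.90). On day 28 the one comparison past an unadjusted p of 0.05 by the F-test was Blk, with 0.59 after NRCWE-030 and 0.26 after NRCWE-025 at 18 µg, a difference of 0.34 (95% interval 0.11 to 0.56, adjusted p = 0.467). By the F-test over the 3 doses, 0.155% of all genes on day 1 and 0.241% on day 28 were called and 0 members, and at unadjusted p under 0.05 there were 0 and 1 members against 7.78% and 6.29%. Fcer2a at 54 µg on day 28 differed by 0.53 (95% interval 0.02 to 1.05, adjusted p = 0.622). The intervals reach past 0.5 on the log2 scale in 1 direction or the other for Ms4a1, Cd79b, Fcer2a and Cxcr5 at every dose, so the materials are not shown to act alike.

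On day 28 the counts of higher and lower members changed with 1 control mouse. Control replicate 4 of day 28 stood apart: its log2 level of Ms4a1 was 2.13, where the other 4 controls had -0.02, 0.13, 0.12 and 0.01, and those of Cd79b, Fcer2a and Cr2 were also farthest from the rest, at 1.95, 1.72 and 0.88. Averaged over the 9 genes, this mouse lay 0.71 above its group mean, the highest of the 69 arrays. In the same array the 6 adipocyte markers lay 2.08 and the 6 heart muscle markers 0.89 above their group means, and the part of what these markers show in the B cell levels was not tested. The counts and medians of the members against the controls of day 28 are therefore given with and without this array. This array was singled out by its member levels, so leaving it out raises the median difference of the members from control. The wider B cell list and the shares of all genes are given with it.

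After NRCWE-030 on day 28, 9, 7 and 6 of the 9 genes were higher than control at 18, 54 and 162 µg, with medians of 0.17, 0.10 and 0.04, and without control replicate 4 the counts were 9, 9 and 9 (medians 0.29, 0.27 and 0.18). After NRCWE-025 they were 6, 3 and 7 (medians 0.10, -0.07 and 0.19), and without it 7, 7 and 9 (medians 0.17, 0.09 and 0.30). No member was called with or without this array. Pax5 at NRCWE-030 18 µg, with log2 levels of 0.03, 0.35, 0.32, 0.29 and 0.16 against -0.02, -0.20, -0.04, 0.11 and 0.00 in controls, differed by 0.26 ± 0.09 (SE, adjusted p = 0.301). Its signal was well above background on 1 of 5 arrays in each of these groups, so this difference is mostly one between values at background and gives no level of Pax5. Cd79b at the same dose had 1.06, 1.07, 1.57, 1.40 and 1.54 against 0.50, 0.59, 0.30, 1.95 and 0.71. Its difference was 0.51, and 0.80 without control replicate 4 (adjusted p = 0.312).

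The calls over all genes on day 28 were few, and 0 members were among them. For NRCWE-025 they were 0.059%, 0.0268% and 0.0161% at 18, 54 and 162 µg and 0.0268% by the F-test, and for NRCWE-030 0.118%, 0.0536%, 0.0965% and 0.102%. At unadjusted p under 0.05 the only member was Pax5, at NRCWE-030 18 µg (9.03% of all genes) and by its F-test (7.06%). At the other doses 6.52% (54 µg) and 7.51% (162 µg) of all genes were below, and after NRCWE-025 8.89%, 7.07%, 7.24% and 5.77% by the F-test, with 0 members. Without control replicate 4 there were 1, 0 and 3 members at 18, 54 and 162 µg of NRCWE-025, and 3, 3 and 2 of NRCWE-030, all of them higher than control. They were drawn from Cd79b, Fcer2a, Cr2, Cxcr5 and Pax5, the lowest adjusted p was 0.277, and the share of all genes was not counted in that fit. The wider B cell list had 31 of 37 genes higher at NRCWE-025 162 µg (median 0.19) and 24 of 37 at NRCWE-030 162 µg (median 0.08), with none called.

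The change of the 162 µg effect between days was tested as an interaction. For NRCWE-025 the effect on day 28 minus that on day 1 was above 0 for 9 of 9 genes (median 0.39, against 0.00 over all genes), with 0.84 ± 0.40 (SE) for Cd79b (adjusted p = 0.445) and 0.48 ± 0.21 for Cd22 (adjusted p = 0.386). For NRCWE-030 it was above 0 for 8 of 9 (median 0.15), with 0.40 ± 0.20 for Cd22 (adjusted p = 0.666) and -0.02 ± 0.36 for Fcer2a. Without control replicate 4 of day 28 the medians were 0.58 and 0.24. None was called, where 0.059% and 0.198% of all genes were, and at unadjusted p under 0.05 there were 2 and 0 members against 10.5% and 7.67%. Without that array 9 of 9 genes were above 0 for each material, 5 and 3 members had an unadjusted p under 0.05, and none was called (lowest adjusted p = 0.216 and 0.460). The share of all genes was not counted in that fit, and leaving out a control with high member levels raises the median effect. Spots well above background had median shares of 55.3% on day 1 and 68.0% on day 28 at NRCWE-025 162 µg. These were 60.0% and 67.4% at NRCWE-030 162 µg, and 62.1% and 65.9% in controls. The part of this share in the interaction was not tested. In vehicle controls alone, 4 of 9 genes were higher on day 28 than on day 1, from -0.16 for Cd79b to 0.19 for Blk, with 0 members called (0.0375% of all genes) and 0 at unadjusted p under 0.05 (8.51%). Without control replicate 4 of day 28, 2 of 9 were higher, the median moved from -0.07 to -0.21, and the values ran from -0.55 for Ms4a1 to 0.12 for Blk, again with 0 members under either threshold.

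In the order of the 14 group means, the lowest 2 for Ms4a1, Cd79b and Cd22 were NRCWE-030 54 µg and 162 µg on day 1. The highest group of Ms4a1 was NRCWE-025 162 µg on day 28 (0.75 ± 0.62, SD, n = 4), of Cd79b NRCWE-030 18 µg on day 28 (1.33 ± 0.25, SD, n = 5) and of Cd22 NRCWE-030 54 µg on day 28 (1.28 ± 0.43, SD, n = 5). The range of group means was 1.15 for Cd79b, 1.07 for Ms4a1, 0.79 for Cxcr5 and 0.66 for Fcer2a, against a median SD within groups of 0.41, 0.45, 0.47 and 0.42. For the remaining members the range ran from 0.26 for Pax5 to 0.51 for Cd22. No neighbours in the order of any of the 9 genes differed by more than their pooled SD. Neighbours among 14 ordered means lie close because they are ordered, so this says nothing of groups farther apart.

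The levels of the members varied together from mouse to mouse. After each group mean was taken off, all 36 pairs of the 9 genes had a positive Pearson correlation over the 69 arrays (r from 0.23 to 0.91, rho from 0.24 to 0.89), and 34 pairs had an adjusted p under 0.05 by permutation within groups (Benjamini-Hochberg over 36 pairs). Ms4a1 and Cd79b were the closest pair (r = 0.91, rho = 0.89, adjusted permutation p = 2.0e-05 and 2.57e-05, resting on the smallest value that 100000 permutations can give). Without the 2 mice farthest in Ms4a1 it was 0.90, and it was 0.87 on day 1 and 0.94 on day 28. The 21 pairs without Pax5 and Blk had r from 0.56 to 0.91 (median 0.64), and 0.50 to 0.90 without the 2 farthest mice of each pair. The 15 pairs with Pax5 or Blk, the genes with the dimmest probes, had r from 0.23 to 0.50 (median 0.32).

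The pairs were computed again within batches. With scan day taken off, the 21 pairs had r from 0.51 to 0.95 and 29 of the 36 pairs passed the threshold. Within day 28 the 21 pairs had r from 0.56 to 0.94 (median 0.78), and within day 1 from 0.24 to 0.87 (median 0.52). The mean deviation of the 9 genes was also related to the share of spots well above background of an array (r = 0.52, rho = 0.52, permutation p = 4.0e-05 and 7.0e-05, 1 relation, and r = 0.55 without the 2 farthest arrays, 0.50 on day 1 and 0.53 on day 28). With that share taken off, the 21 pairs had r from 0.49 to 0.91 (median 0.58), Ms4a1 and Cd79b had 0.91, and 24 of the 36 pairs passed the threshold.

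**Figure D3:**
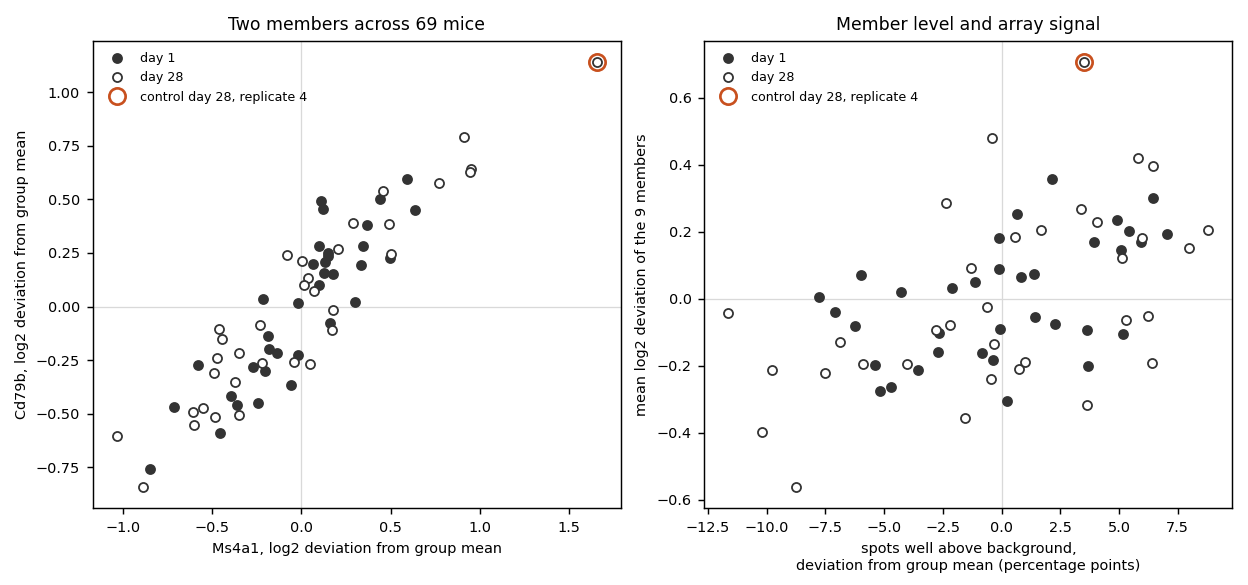
Left, log2 deviation from the group mean of Cd79b (y) against Ms4a1 (x), 1 point per mouse (69), filled for day 1 and open for day 28 (r = 0.91). Right, mean log2 deviation of the 9 genes (y) against the deviation of the share of spots well above background in percentage points (x) (r = 0.52), where control replicate 4 of day 28 (ring) lies highest at 0.71.

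The genes whose pattern over the 69 mice was most like the mean of the members are given as a description, since all points share their arrays. These included Bank1, an adaptor of B cell receptor signalling (r = 0.93), Tnfrsf13c, the receptor for the survival factor BAFF (0.87), Ly6d (0.86), Plcg2, the phospholipase of the receptor pathway (0.85), Clec2i (0.84), Fcrla (0.84), Fcmr (0.84), H2-Ob (0.84) and H2-Oa (0.83). Of the 9 genes named, 7 were on the wider B cell list, and Ly6d and Clec2i were on none. The median r of a list with the members was 0.58 for the 37 B cell genes, 0.45 for T cell, 0.45 for NK cell, 0.20 for dendritic cell, 0.16 for plasma cell and germinal centre, -0.09 for early B cell, 0.11 for macrophage, 0.06 for neutrophil, 0.09 for epithelium, 0.12 for adipocyte and 0.02 for heart muscle genes, against -0.01 over all genes.

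**Figure D4:**
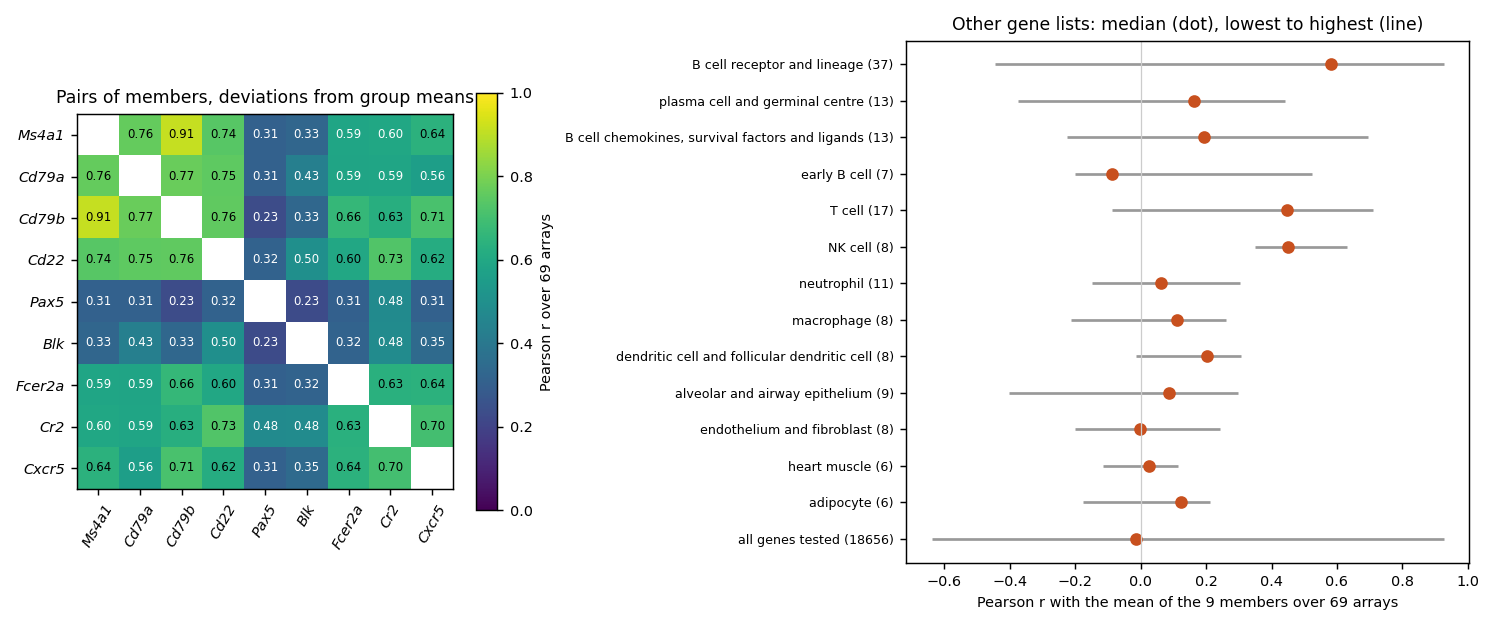
Left, Pearson r between each pair of the 9 genes over 69 arrays after the group means were taken off, from 0.23 to 0.91. Right, r of each gene of a list with the mean of the 9 genes, as the median (dot) and the lowest to highest value (line), with the number of genes measured in brackets, where the B cell list has the highest median (0.58).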

How the data were processed

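Per the file headers, the deposited scanner files (Agilent Feature Extraction 11.0.1.1) hold spot and local background intensity in both colours, flags of 0 or 1 for each spot, and the software's log10 ratio. The deposited series matrix holds log2 values that the authors normalized by LOWESS, and its slope on a loess of the spot signals was 0.993 (median). Values were recomputed with limma 3.58.1 in R 4.3.3. Where the scanner marked a local background as an outlier, the median of the unmarked ones on that array took its place. Then normexp (offset 50) and loess within arrays were applied and probes of a gene were combined by the median. This replacement was chosen with earlier results known: as deposited, 4 arrays had a fitted Cy5 background mean below -100. On replicate 5 of NRCWE-030 18 µg day 28 the matrix agreed less with the spots (r = 0.922).

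Of 41174 probes, 27479 had a RefSeq symbol, giving 18749 genes, of which 93 had a missing value. For each material and day, control and 3 doses were fitted together. A second fit of all 14 groups tested materials and days. P-values for groups of 4 or 5 mice are limma's, two-sided and adjusted over 18656 genes. They weigh a difference of group means against the spread between the labelled samples. Permutations and plots used Python 3.11.15, numpy 2.4.6, scipy 1.17.1 and matplotlib 3.10.9.

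The members and lists were chosen with earlier results of these data known. All 9 members, the called genes of the other lists (at most 5 of each) and the 10 genes most like the members are named, apart from 1 that is not reported here. Cxcl13 was chosen after its values were seen. The fits were tested on simulated data. Array numbers within groups follow the order of deposit.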

Additional observations from a re-analysis of the deposited data

Results flagged for a closer look

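Dixon's ratio compared the highest and the lowest mouse of each of 14 groups with the rest, for each of the 9 genes. Of 126 sets of 1 gene in 1 group, 13 were marked, at a limit that chance passes in about 1 in 20. The genes vary together and share their mice, so the marks are not independent. Their number is therefore not set against chance.

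Control replicate 4 of day 28 was marked high for 4 genes: Ms4a1 at 2.13 (nearest mouse 0.13), Cd79b at 1.95 (0.71), Fcer2a at 1.72 (0.90) and Cr2 at 0.88 (0.35). Control replicate 3 of day 1 was marked low for Ms4a1, at -0.24 with the nearest at 0.71. Replicate 4 of NRCWE-025 162 µg day 28 was marked low for Cr2 (0.17, nearest 0.72) and Cxcr5 (2.00, nearest 2.97). Single marks for Cxcr5 were replicate 3 of NRCWE-030 18 µg day 1 (1.19, nearest 2.35) and replicate 5 of NRCWE-025 18 µg day 28 (1.05, nearest 2.51). For Cd79a they were replicate 4 of NRCWE-025 18 µg day 1 (0.25, nearest 0.36) and replicate 2 of NRCWE-030 18 µg day 1 (0.55, nearest 0.37). Pax5 in control replicate 4 of day 1 (0.18, nearest 0.02) and Blk in replicate 2 of NRCWE-030 162 µg day 28 (0.86, nearest 0.32) were marked on probes that were dim on most arrays.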

How the results depend on the processing

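The count of members called was 0 in 18 of 21 comparisons under every alternative that could be fitted, and the other 3 were all NRCWE-030 on day 1. There, with the slide as a random block, 2 members (Ms4a1 and Cd22) were called by the F-test, at 54 µg and at 162 µg. They were among 459, 118 and 494 genes called. At 162 µg, the mean over probes called 1 (Cd22). Its difference stayed at -0.39 as in the main fit, and its adjusted p moved from 0.0501 to 0.0486. Probes well above background on at least 35 of the 69 arrays, which left out Pax5 and Blk among others, called 1 (Ms4a1). Leaving out 1 array gave 0 to 1 members by the F-test, 0 to 1 at 54 µg and 0 to 2 at 162 µg. Calls came without control replicate 3 of day 1 (Ms4a1, the gene whose low level singled out that control) and without replicates 2 (Cd22) or 3 (both) of NRCWE-030 18 µg. Over these fits the genes called ran from 96 to 246 by the F-test, 3 to 66 at 54 µg and 151 to 468 at 162 µg. Over the alternatives, the difference at 162 µg ran from -1.20 (scanner log ratio) to -0.31 (scale normalization) for Cd22, and from -1.02 to -0.77 for Ms4a1, and stayed below 0 in each. The difference of Cd79a at NRCWE-025 162 µg day 1 reversed to 0.0189 with the slide as a fixed block. The cause was not tested.

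The counts over all genes moved more: for NRCWE-030 on day 1, 178 genes in the F-test became 74 to 459 under the alternatives, 15 at 54 µg became 8 to 118 and 316 at 162 µg became 50 to 585. Of the 36 pairs of members, 34 passed over all arrays, 18 over the 35 arrays of day 1 and 31 over the 34 of day 28. The cause was not tested. These settings for the pairs, the scan day and the share of spots were chosen after seeing the data. No paired analysis was possible because the numbers of the mice come from the order of deposit. The dim probes of Pax5, Blk and the second probes of Cd22 and Cr2 limit what could be seen, as does the low signal of Cd79a.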
